A study of Homo sapiens with 6 samples.

Results

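The 10 genes described here encode the proteins with which a human cell detects foreign or misplaced RNA in the cytosol and in endosomes. They are the RIG-I-like receptors RIGI, IFIH1 and DHX58, their helicase and ubiquitin ligase cofactors DDX60, DDX60L and TRIM25, the adaptor MAVS, the endosomal receptor TLR3, the kinase EIF2AK2 (PKR) and the editing enzyme ADAR. They were chosen by symbol, from their known roles, but with earlier results of these data known. They are 10 of the 60664 genes in the count matrix. All 10 passed the filter of at least 10 counts over the 6 libraries, as did 29022 genes in all. The cells were U-2 OS, a human osteosarcoma line. Cells transfected with a control siRNA (siControl, 3 libraries) were set against cells transfected with an siRNA to SFPQ (siSFPQ, 3 libraries), each siRNA at 30 nM with a cationic lipid, and poly(A) RNA was sequenced. Both groups had therefore received short double-stranded RNA, and no untransfected cells were analysed here. The control and SFPQ siRNAs are different products, and whether cells sensed them alike was not tested. A single cell line was used, and the time after transfection is not given in the sources used here. The study describes the 3 libraries of a group as biological replicates, while the labels do not name separate cultures, and the p-values measure the spread between these libraries.

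RIG-I (RIGI) and MDA5 (IFIH1) are helicases that recognise double-stranded RNA in the cytosol, RIG-I at duplex ends carrying a triphosphate and MDA5 along long duplexes. Both then bind MAVS on the mitochondrial surface, which recruits the kinases that activate IRF3 and NF-κB and so switches on interferon genes. TLR3 reads double-stranded RNA inside endosomes through a separate adaptor, TRIF, whereas PKR halts translation by phosphorylating eIF2alpha and ADAR edits adenosines in duplexes so that the cell's own RNA is not taken for viral RNA. Most of these genes are themselves induced by interferon, through a promoter element built from spaced GAAA repeats to which IRF and ISGF3 factors bind.

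The promoter letters of the genes are shown first, since the measured changes are set beside them later. RefSeq windows of 300 bases (250 before and 50 from the transcription start, GRCh38.p14) were found for 9 of the 10 genes, in 11 windows because ADAR has 3 starts. DHX58 was not in the table. A RefSeq start need not be the end of the gene span given with the values. Only that of IFIH1 coincides with it. The starts of the other genes found lie inside their spans, that of DDX60L furthest. All positions below are counted from the RefSeq start and would shift with another choice of start. Both strands were searched for GAAANNGAAA, which 3.57% of the 35116 windows in the table hold, and for GAAANGAAA, which 3.12% hold. The second can overlap the first where 3 repeats follow each other. Windows of 7 of the 9 genes held at least 1 of the motifs, against 7.83% of the 27305 genes in the table. The stretches around the matches are printed 5′ to 3′ on the strand of the gene, with the matched letters in capitals (TTTC letters mark a match on the opposite strand). DDX60 (chr4:168318766-168318870, minus strand) and DDX60L (chr4:168480503-168480602, minus strand) are shown as the neighbouring genes with the smallest adjusted p-values of the set, and IFIH1 (chr2:162318685-162318873, minus strand) and RIGI (chr9:32526361-32526429, minus strand) as the receptors themselves.
DDX60: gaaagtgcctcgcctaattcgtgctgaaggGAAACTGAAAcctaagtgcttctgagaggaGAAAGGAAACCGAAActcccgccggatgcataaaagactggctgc
DDX60L: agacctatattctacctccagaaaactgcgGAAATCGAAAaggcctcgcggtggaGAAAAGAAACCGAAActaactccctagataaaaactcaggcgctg
IFIH1: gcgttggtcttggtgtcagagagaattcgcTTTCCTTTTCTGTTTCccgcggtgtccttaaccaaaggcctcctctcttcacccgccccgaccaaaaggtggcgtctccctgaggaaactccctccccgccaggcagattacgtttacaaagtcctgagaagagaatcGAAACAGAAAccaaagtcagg
RIGI: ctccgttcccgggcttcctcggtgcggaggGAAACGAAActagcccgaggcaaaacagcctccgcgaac
DDX60 and DDX60L each held 3 matches, and the 12-base run GAAACCGAAACT lay in both, from -53 to -42 before the start of DDX60 and from -50 to -39 before that of DDX60L. It was the longest run the 250 bases before both starts shared, and 10 of the 35116 windows held it on either strand. IFIH1 held 2 overlapping matches on the opposite strand between -159 and -144 and 1 on its own strand from -21 to -12. RIGI held a single match, from -203 to -195.

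The remaining matches crossed the transcription start itself. They are shown for TLR3 (chr4:186069122-186069161, plus strand), TRIM25 (chr17:56914044-56914082, minus strand) and EIF2AK2 (chr2:37156977-37157016, minus strand), because the last of these carries the letters yet was not called changed below.
TLR3: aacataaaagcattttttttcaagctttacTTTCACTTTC
TRIM25: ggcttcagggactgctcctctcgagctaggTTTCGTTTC
EIF2AK2: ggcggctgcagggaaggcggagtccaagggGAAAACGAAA
The windows of ADAR and MAVS held neither motif. A match is a description of letters and was not tested as a binding site.

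**Figure D1:**
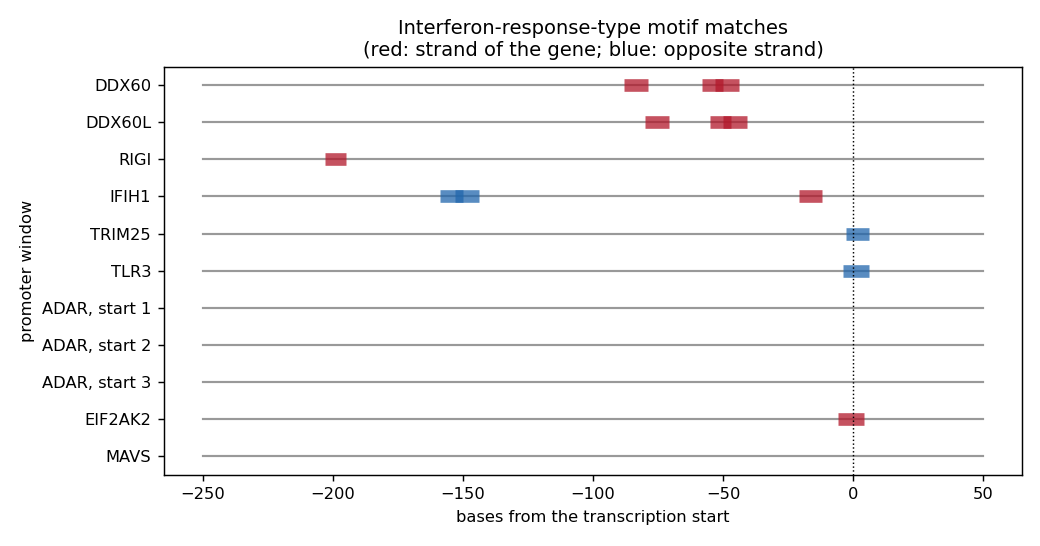
Matches to the 2 spaced GAAA motifs in 11 promoter windows of 9 genes; the x axis gives bases from the transcription start, each grey line is 1 window, and red and blue blocks are matches on the strand of the gene and on the opposite strand. DDX60 and DDX60L both carry 3 matches between -88 and -41, and the ADAR and MAVS lines are empty.

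Library totals ran from 43469321 to 47119203 counts, so that 3 counts, used as the floor of detection, correspond to 0.0637 to 0.0690 CPM (counts per 1000000 counts of a library). That floor covers counting error only, whereas the 95% intervals given with fold changes come from the edgeR fit and include the spread between libraries. The targeted transcript, SFPQ, averaged 22444 ± 666 normalized counts in siControl and 3376 ± 356 in siSFPQ (SD over 3 libraries). On the log2 scale the difference was -2.73 (standard error, SE, 0.050), and the quasi-likelihood test of edgeR gave an adjusted p of 6.34e-30. Of the osteoblast lineage markers COL1A1, SPARC and RUNX2 were high, with 86929 or more counts of SPARC in every library, whereas SP7, IBSP and BGLAP stood at 0 to 6 counts. ALPL averaged 3.52 CPM in siControl and 3.33 CPM in siSFPQ, and COL1A2 averaged 0.83 and 1.09 CPM. The 8 lineage markers summed to 5041 to 5373 CPM in siControl and 4307 to 4339 CPM in siSFPQ, 1 rising and 2 falling. The rising one was BGLAP, with 0, 0 and 1 counts in siControl and 5, 6 and 6 in siSFPQ. Its log2 fold change of 3.65 (SE 1.28) thus rests on few counts. COL1A1 and SPARC fell, with log2 fold changes of -0.35 and -0.17. All 10 leukocyte markers were under 1 CPM on average (summed level 1.75 to 2.30 CPM in siControl and 2.18 to 2.66 CPM in siSFPQ, of which 2 rose and 1 fell), with CD3E and LYZ at 0 to 3 counts. The 5 epithelial markers summed to 14.5 to 18.4 CPM in siControl and 36.1 to 39.3 CPM in siSFPQ, 3 of them rising. CLDN4 carried most of that difference, at 8.86 CPM in siControl and 29.8 CPM in siSFPQ (log2 fold change 1.75), whereas EPCAM and ESRP1 did not pass the test. The 5 endothelial markers summed to 5.74 to 7.39 CPM and 7.59 to 8.45 CPM, 2 rising and 1 falling. The part of these shifts in the results was not tested.

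Upon SFPQ knock-down 8 of the 10 RNA sensing genes rose at an adjusted p under 0.05, where 22.4% of all genes tested rose and 22.1% fell. Among genes with a mean of at least 1 CPM, which all members but RIGI and DHX58 have, 30.1% rose and 34.5% fell. None of the 10 fell, none fell at an unadjusted p under 0.05 in edgeR, and DESeq2 likewise called 0 lower, while it called 6 higher. MAVS and EIF2AK2 did not pass the test. DDX60 alone also exceeded a log2 fold change of 1.5, a step that 5.54% of all genes took upwards and 4.77% downwards. The normalized counts of the siSFPQ libraries lay wholly above those of the siControl libraries for 8 genes, against 26.9% of all genes tested. The median log2 fold change of the 10 genes was 0.59, that of all genes tested 0.02. DDX60 belongs to the innate immunity signature that the study chose on these same libraries, so its direction here is not independent of that choice. Because all 10 genes were picked with earlier results of these data known, the shares above are a description and not an independent test. Set beside the promoter letters printed above, RIGI, IFIH1, DDX60, DDX60L, TLR3 and TRIM25 held a motif and rose, ADAR held none and rose, MAVS held none and EIF2AK2 held 1, and neither of these last passed the test. In bulk RNA, fewer or more cells with a transcript and less or more of it per cell cannot be told apart.

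**Figure D2:**
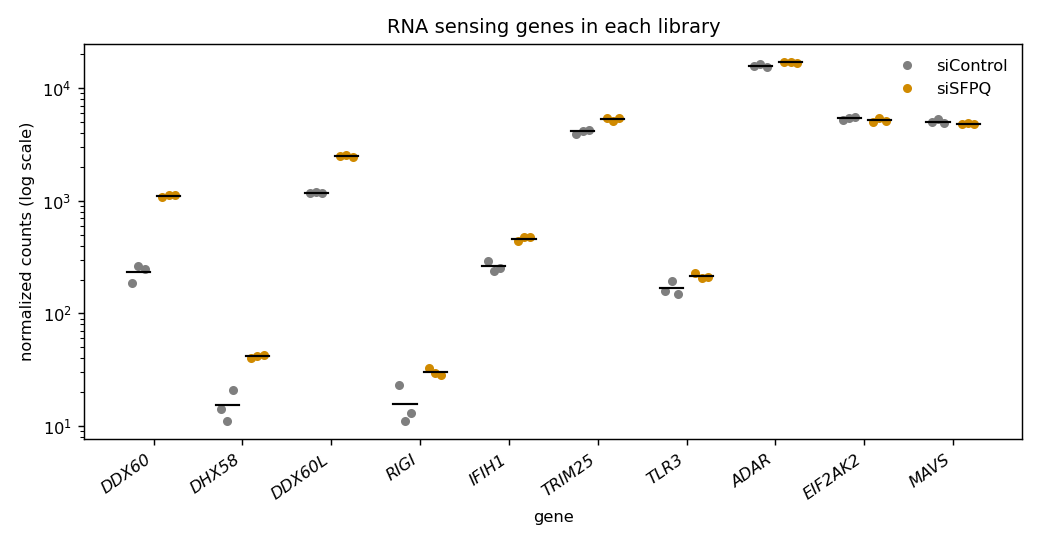
Normalized counts (log axis) of the 10 genes in each of the 6 libraries; grey points are siControl, orange points siSFPQ, and black bars the means of 3 libraries. DDX60 stands out by the widest gap, from a mean of 232 to 1111, whereas the points of EIF2AK2 overlap between the groups.

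Among the cytosolic receptors, IFIH1 (chromosome 2, 162267074 to 162318684) was the one measured with the most reads. Its counts were 294, 240 and 254 in siControl libraries and 422, 485 and 482 in siSFPQ libraries, so every depleted library exceeded every control. Normalized counts averaged 263 ± 28.2 and 462 ± 23.0 in the 2 groups (SD, n = 3). IFIH1 thus rose 1.76-fold, a log2 fold change of 0.81 (SE 0.099, adjusted p = 1.99e-08 by edgeR).

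DHX58 (chromosome 17, 42101404 to 42112714) encodes LGP2, the receptor of the family that lacks signalling domains and tunes the other two. It gave 14, 11 and 21 counts in siControl and 39, 43 and 43 counts in siSFPQ. The groups did not overlap, although all values were below 50 counts. The log2 fold change was 1.43 (SE 0.333, adjusted p = 0.00059), with a 95% interval of 0.75 to 2.11 that includes the threshold of 1.5, and without siControl replicate 3 the estimate was 1.72.

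RIGI (chromosome 9, 32455302 to 32526208, minus strand) gave the fewest counts over the 6 libraries together, 23, 11 and 13 in siControl and 32, 30 and 29 in siSFPQ. The 3 siSFPQ libraries were higher than the 3 controls, the closest pair being siControl replicate 1 and siSFPQ replicate 3. The log2 fold change was 0.94 (SE 0.369, 95% interval 0.19 to 1.70, adjusted p = 0.0363). The call rested on the full set of libraries: it was lost when any library other than siControl replicate 1 was left out, with an adjusted p of up to 0.119, and in DESeq2, with an adjusted p of 0.0811.

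Most of the RIGI message is also annotated to another gene. In the GENCODE v44 annotation a protein-coding readthrough gene, ENSG00000288684 (chromosome 9, 32455323 to 32552603), lies on the same strand and shares 4471 exon bases with it. Of the 4628 bases of the canonical RIGI transcript 157 belong to RIGI alone, and 96.6% are shared. Only exon 1 of 18 is free of overlap. ENSG00000288684 itself had 0 counts in all 6 libraries. Gene counters commonly leave out reads that fit the exons of more than 1 gene, and the overlap setting behind this matrix is not given in the sources used here. Where the reads of RIGI lie was not tested. Its counts are therefore compared between the libraries, and its ratios to other genes only for their change between the groups. Its level is not ranked among those of other genes.

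**Figure D3:**
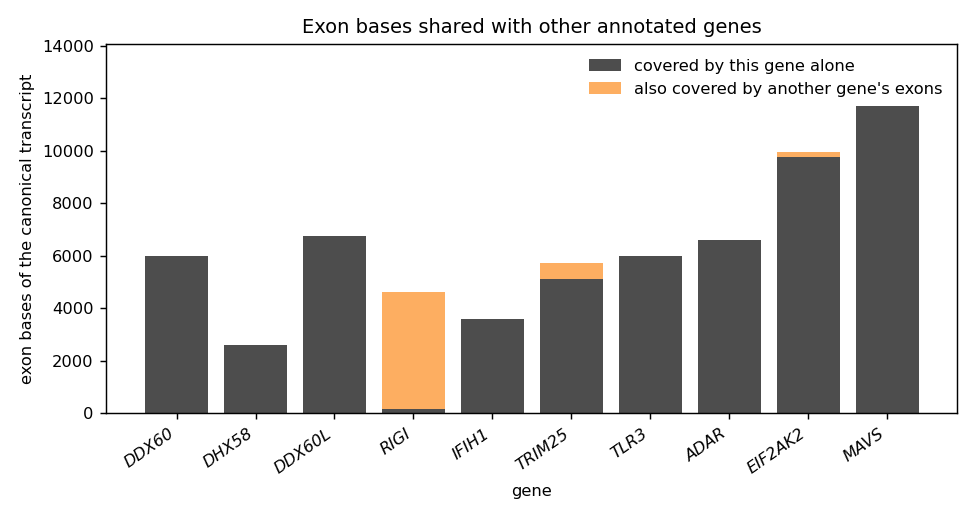
Exon bases of the canonical transcript of each gene in GENCODE v44, split into bases that belong to the gene alone (dark) and bases that exons of another annotated gene also cover (light). RIGI keeps 157 of 4628 bases to itself, whereas 7 of the 10 genes share none.

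DDX60 and DDX60L are large related helicases, of which DDX60 has been described as a cofactor that promotes RIG-I signalling. They lie side by side on the minus strand of chromosome 4 (168216291 to 168318883 and 168356735 to 168537786), 37851 bases apart. Their transcripts shared no 100-base stretch. DDX60 gave 185, 263 and 247 counts in siControl and 1059, 1148 and 1134 counts in siSFPQ. Every depleted library was far above every control. The log2 fold change was 2.26 (SE 0.091, 95% interval 2.07 to 2.45, adjusted p = 1.95e-20), and it stayed between 2.12 and 2.36 when single libraries were left out.

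DDX60L gave 1172, 1202 and 1171 counts in siControl and 2448, 2625 and 2466 counts in siSFPQ. It rose 2.12-fold, with a log2 fold change of 1.08 (SE 0.050, adjusted p = 6.68e-19). The pair therefore changed unequally. A library held 4.57 to 6.34 counts of DDX60L for each count of DDX60 in siControl, but 2.17 to 2.31 in siSFPQ. The log2 ratio of DDX60 to DDX60L per kilobase was 1.19 higher in siSFPQ, with no overlap between groups, but did not pass the test. An exact two-sided permutation test gave p = 0.1, the smallest that 3 against 3 libraries allow (0.4 after Benjamini-Hochberg adjustment over 4 ratios).

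The other 3 ratios did not pass either, and each was taken against RIGI, whose counts are few. The log2 ratio of IFIH1 to RIGI changed by -0.16 (exact permutation p = 0.6), that of DHX58 to RIGI by 0.45 (exact permutation p = 0.4) and that of TLR3 to RIGI by -0.60 (exact permutation p = 0.4). These do not show that the receptors changed alike.

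The ubiquitin ligase TRIM25 (chromosome 17, 56836387 to 56914080), which attaches ubiquitin chains in the RIG-I pathway, gave 3947, 4169 and 4258 counts in siControl and 5268, 5209 and 5552 in siSFPQ. The groups were well apart, and the log2 fold change was 0.37 (SE 0.042, adjusted p = 4.19e-09). Of its canonical transcript 10.9% is also covered by exons of other genes.

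MAVS (chromosome 20, 3846799 to 3876123), the adaptor on which both receptors converge, was one of the more abundant members. It gave 4960, 5289 and 4853 counts in siControl and 4625, 4969 and 4881 counts in siSFPQ. After normalization the 3 siSFPQ libraries (4770, 4862 and 4814) lay just below the lowest control (4866). The log2 fold change of -0.07 did not pass the test (SE 0.040, adjusted p = 0.194), and its 95% interval of -0.15 to 0.02 leaves room for changes of that size.

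TLR3 (chromosome 4, 186068911 to 186088073) gave 158, 194 and 148 counts in siControl and 220, 210 and 215 counts in siSFPQ. The groups did not overlap, and the siControl libraries were the more scattered. The log2 fold change was 0.36 (SE 0.127, 95% interval 0.10 to 0.62, adjusted p = 0.0192). The call was lost in DESeq2 (adjusted p = 0.0539) and without siControl replicate 1, siControl replicate 3 or siSFPQ replicate 1, with an adjusted p of up to 0.0916.

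EIF2AK2 (chromosome 2, 37099210 to 37157522) gave 5239, 5475 and 5519 counts in siControl and 4870, 5562 and 5211 in siSFPQ. The groups overlapped, since siSFPQ replicate 2 was as high as the controls. The log2 fold change was -0.06 (SE 0.040, 95% interval -0.14 to 0.02, adjusted p = 0.254). Without siSFPQ replicate 2 it was -0.11 with an adjusted p of 0.0412, and when libraries were scaled by their size alone it was 0.0046. No direction is therefore given for PKR mRNA.

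ADAR (chromosome 1, 154581695 to 154628013) was the most abundant of the genes. It gave 15560, 16330 and 15247 counts in siControl and 16583, 17305 and 17143 counts in siSFPQ. Although the groups did not overlap, the rise was the smallest of those called, with a log2 fold change of 0.11 (SE 0.036, adjusted p = 0.0124). The adjusted p was 0.0507 without siControl replicate 3. ADAR has a constitutive and an interferon-induced promoter, and gene-level counts do not separate their transcripts.

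**Figure D4:**
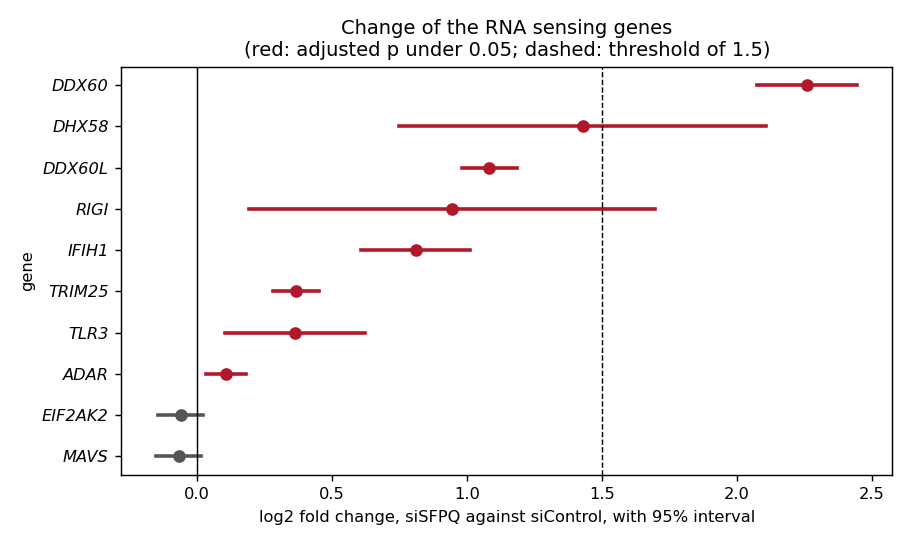
Log2 fold change of each gene in siSFPQ against siControl with its 95% interval from the edgeR fit; red marks an adjusted p under 0.05 and the dashed line the threshold of 1.5. The interval of DDX60, 2.07 to 2.45, lies wholly above the threshold, and those of EIF2AK2 and MAVS include 0.

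Set against each other per length, as RPKM (CPM per kilobase of exon, means of 3 libraries), the order in siControl was led by ADAR at 28.1 ± 0.957, EIF2AK2 at 10.7 ± 0.298, MAVS at 9.36 ± 0.409 and TRIM25 at 7.27 ± 0.283. DDX60L followed at 2.13 ± 0.029 RPKM, IFIH1 at 1.10 ± 0.118, TLR3 at 0.487 ± 0.070, DDX60 at 0.293 ± 0.052 and DHX58 at 0.088 ± 0.029. Every neighbour in this order was separate from the next over the 3 libraries. ADAR, EIF2AK2, MAVS and TRIM25 thus stood well above the receptors and helicases placed in this order, which leaves RIGI out.

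In siSFPQ the levels per length were 30.3 ± 0.189 RPKM for ADAR, 10.3 ± 0.429 for EIF2AK2, 9.39 ± 0.365 for TRIM25 and 8.94 ± 0.086 for MAVS, and TRIM25 and MAVS overlapped. DDX60L reached 4.51 ± 0.125 RPKM, IFIH1 1.93 ± 0.096, DDX60 1.40 ± 0.021, TLR3 0.626 ± 0.032 and DHX58 0.238 ± 0.007. DDX60 and TLR3 stood in the other order than in siControl. The order depends on the length used. Over the longest transcript of each gene in place of the union of its exons, the siControl levels were 47.3 RPKM for ADAR, 15.7 for TRIM25, 11.7 for EIF2AK2 and 9.39 for MAVS, which puts TRIM25 above EIF2AK2 and MAVS. On that scale DDX60 was above TLR3 in both groups (0.755 and 0.607 RPKM in siControl, 3.62 and 0.781 in siSFPQ), and so did not change places with it. RIGI had the lowest value in both groups, 0.033 and 0.064 RPKM over all its exon bases, but 2.18 and 4.22 over the 157 bases that it shares with no gene, which is why no place in the order is given for it.

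Summed over the 10 genes, the level was 691 to 725 CPM in siControl and 801 to 804 CPM in siSFPQ. ADAR made up 48.1 to 49.3% of the sum in siControl and 46.0 to 46.6% in siSFPQ. Ranked among the 15641 genes with a mean of at least 1 CPM, DDX60 had the 98th highest log2 fold change. The 3 genes whose profiles over the 6 libraries came closest to that of DDX60, by Euclidean distance of log2 CPM relative to the siControl mean, were TNFSF15 (distance 0.204, log2 fold change 2.28), HEY1 (0.223 and 2.34) and SPAG17 (0.241 and 2.19).

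A further 20 cofactors and regulators of the RIG-I-like receptors were followed, and all were tested. Of these 7 rose and 7 fell (35% each), with a median log2 fold change of 0.03. Over all genes tested the shares were 22.4% and 22.1%, and over the 15641 genes with a mean of at least 1 CPM they were 30.1% and 34.5%, so this list was near the level of expressed genes. The one past the threshold of 1.5 was RNF125, a ubiquitin ligase known to mark RIG-I for degradation. It rose from 70.4 ± 7.42 to 257 ± 29.5 normalized counts (log2 fold change 1.87, SE 0.145, adjusted p = 7.22e-13), and like DDX60 it belongs to the signature that the study chose on these libraries. TRIM65, a ligase that acts on MDA5, rose from 1838 ± 78.6 to 3482 ± 27.3 normalized counts (0.92). Among the genes that fell, ANKRD17 and the ligase MEX3C, both described as positive regulators of RIG-I, had log2 fold changes of -0.35 and -0.20. With libraries scaled by size alone the split was 11 higher and 3 lower.

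Of 21 genes that carry the signal on from MAVS and TRIF, 10 rose and 5 fell (median log2 fold change 0.14). These shares, 47.6% and 23.8%, stand beside 22.4% and 22.1% of all genes tested and 30.1% and 34.5% of those with at least 1 CPM. IKBKE, the inducible kinase related to TBK1, rose from 532 ± 53.9 to 987 ± 5.46 normalized counts (0.89, adjusted p = 5.16e-12). TBKBP1, a TBK1 scaffold, rose from 1252 ± 102 to 1865 ± 106 (0.57). AZI2, another adaptor of TBK1, fell from 1381 ± 28.2 to 1064 ± 19.9 normalized counts (-0.38), and TRAF3, the ligase that links MAVS to TBK1, from 1485 ± 15.4 to 1217 ± 27.3 (-0.29).

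The list for endosomal Toll-like receptors held 13 genes, of which 9 were tested. TLR7, TLR8 and TLR9, the receptors for single-stranded RNA and DNA, had 0 or 1 count in every library. Of those tested 2 rose and 3 fell (median log2 fold change -0.01), or 22.2% and 33.3%. Over all genes tested 22.4% rose and 22.1% fell, and over those with at least 1 CPM 30.1% and 34.5%. UNC93B1, which escorts these receptors and TLR3 to endosomes, rose from 1090 ± 87.2 to 1556 ± 53.5 normalized counts (0.51, adjusted p = 8.24e-09), and the protease LGMN rose by 0.18 on the log2 scale. CTSL, a cathepsin that cleaves the receptors, fell from 10662 ± 309 to 6193 ± 62.7 (-0.78, adjusted p = 1.81e-18), and HSP90B1, their chaperone in the endoplasmic reticulum, from 54263 ± 2093 to 37799 ± 1600 (-0.52).

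A further list held 19 genes, mostly of proteins that bind or edit double-stranded RNA. Of these 17 were tested, and 6 rose and 9 fell (median log2 fold change -0.09). The shares were 35.3% and 52.9%, beside 22.4% and 22.1% of all genes tested and 30.1% and 34.5% of those with at least 1 CPM. STAU2, a double-stranded RNA binding protein of transport granules, fell from 3979 ± 65.1 to 1477 ± 43.9 normalized counts (-1.43, adjusted p = 1.73e-23). STRBP, a spermatid RNA binding protein, fell from 1964 ± 63.1 to 840 ± 66.8 (-1.22, adjusted p = 2.82e-18). ZFR, a zinc finger RNA binding protein, rose from 10472 ± 61.6 to 12814 ± 176 (0.29). AIMP2 rose from 1693 ± 83.9 to 2101 ± 53.6 (0.31). It is counted in the list but is not known to bind or edit double-stranded RNA.

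Around PKR, 17 genes of the eIF2alpha pathway were tested, of which 4 rose and 6 fell (median log2 fold change 0.02). That is 23.5% rising and 35.3% falling, beside 22.4% and 22.1% of all genes tested. Among genes with a mean of at least 1 CPM, which all 17 have, 30.1% rose and 34.5% fell. EIF2S1, the phosphorylated subunit, rose from 14207 ± 314 to 16708 ± 60.8 normalized counts (0.23), and EIF2B4, a subunit of its exchange factor, from 1941 ± 154 to 2740 ± 75.1 (0.50). The kinase of the unfolded protein response, EIF2AK3, fell from 1697 ± 39.8 to 1200 ± 22.2 (-0.50), and DNAJC3, an inhibitor of PKR, from 2514 ± 87.3 to 1877 ± 54.1 (-0.42). Scaled by library size alone, 8 genes of this list rose.

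Transcripts of the ligands at the end of the pathway were scarcely detected. IFNB1 had 0 counts in all 6 libraries, and of 21 type I and type III interferon genes 14 had none at all. The highest count of any was 4, and their sum was at most 0.197 CPM. IFNE, the one gene that reached the filter, had 2, 4 and 4 counts in siControl and 0 in each siSFPQ library. Its adjusted p was 0.0249, and the call was absent in DESeq2 and whenever any library was left out. A level under the floor of 3 counts was not detectable at this depth. By quantitative RT-PCR, another measure, the study lists IFNB1 among genes whose expression a STING antagonist lowered in SFPQ-depleted U-2 OS cells.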

How the data were processed

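RNA sequencing libraries of U-2 OS cells (3 siControl, 3 siSFPQ) were made with a stranded poly(A) kit and sequenced as paired reads. Per the labels and the study's methods, the authors checked reads with FastQC, and aligned and quantified them with STAR 2.7.9a on GRCh38 with an Ensembl annotation. They deposited raw gene counts, one column per library (columns left out: 0). The strand and overlap settings of counting are not given in the sources used here.

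From these counts, genes with at least 10 counts in total (29022) were fitted with edgeR 4.0.16 (R 4.3.3; TMM scaling, quasi-likelihood test, no covariates), and p-values were adjusted over all of them by Benjamini-Hochberg. Normalized counts are TMM-scaled, RPKM uses the union of exons, and log2 CPM profiles a prior count of 2. "Rose" and "fell" mean an adjusted p under 0.05. The threshold of 1.5 on the log2 fold change follows the study. The procedure was tested on simulated data with 200 changed genes. Symbols and exons came from GENCODE v44 (60463 of 60664 identifiers matched), and promoters from RefSeq (GRCh38.p14). Alternatives included DESeq2 1.42.0, other scalings and filters, and leaving out each library.

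The genes and lists were chosen with earlier results of these data known. The text names SFPQ, every RNA sensing gene, IFNB1, the list genes averaging 1 CPM or more that met both thresholds, the 2 such genes per direction with the smallest adjusted p among those called, and the 3 profiles closest to DDX60. Other names (marker genes, the readthrough gene, IFNE, and the Toll-like receptors TLR7, TLR8 and TLR9) were added after their values were seen.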

Additional observations from a re-analysis of the deposited data

How the results depend on the processing

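Of 419 recomputed values 366 kept their direction and their side of the threshold or stayed close to the reported value. In DESeq2 the log2 fold changes of RIGI (0.95, adjusted p = 0.0811) and TLR3 (0.36, adjusted p = 0.0539) lost their calls. Scaled by library size alone, which moved the median of all genes from 0.02 to 0.08, EIF2AK2 turned to 0.0046, the receptor cofactors split into 11 higher and 3 lower, and 8 genes of the PKR list rose. With a fold change threshold of 1 instead of 1.5, 3 RNA sensing genes passed both thresholds. IFNE, the one interferon ligand that fell, was not called by DESeq2 (0 ligands), with the filterByExpr filter (0) or with a replicate block (0). The cause of these changes was not tested.

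Leaving out each library gave log2 fold changes of 0.74 to 1.33 for RIGI, 0.29 to 0.49 for TLR3, 0.089 to 0.14 for ADAR and -0.11 to -0.020 for EIF2AK2. Between 5 and 7 RNA sensing genes rose, the lowest without siControl replicate 3. Between 0 and 1 fell, between 1 and 2 passed both thresholds upwards (DHX58 joined without siControl replicate 3), and the number of interferon ligands that fell was 0 to 0. The ratio of DDX60 to DDX60L changed by 1.04 to 1.28, chosen as a check after seeing the data, as was the level of RIGI over unshared bases.

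Deviations from the group means of libraries with the same replicate number correlated at 0.002, 0.012 and 0.015. The other pairs across the groups ran from -0.013 to 0.0004. All these values are small, but with 3 libraries per group they cannot exclude that the numbers pair the libraries. With the replicate block 6530 genes were higher and 6424 lower, against 6514 and 6421, and the block changed no other call named here than that of IFNE. Few counts limit RIGI, DHX58 and the interferon ligands.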

Other observations

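On chromosome 4, 3 further protein-coding genes, each with a mean of at least 1 CPM, lay within 500 kb of DDX60 and DDX60L and were chosen for their position. Genes of other classes were not looked at. PALLD, an actin-associated protein gene that overlaps the DDX60L locus on the opposite strand without sharing exon bases, gave 24562, 26024 and 23316 counts in siControl and 5803, 6564 and 5991 in siSFPQ, and fell (log2 fold change -2.01, edgeR adjusted p = 2.24e-28). ANXA10 fell (-0.48, adjusted p = 0.0013) and CBR4 rose (0.54, adjusted p = 1.66e-07). The protein-coding neighbours of the helicase pair therefore moved in both directions.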
